A study of Zanthoxylum armatum with 24 samples.

Results

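The 4 genes described here are the B class floral genes Zardc17043(*ZaPI*), Zardc41655(*ZaAP3*), Zardc42245(*ZaAP3*) and Zardc42253(*ZaAP3*) of *Zanthoxylum armatum*, out of 60592 genes listed. They were taken by gene ID, and their names are those of the MADS-box table of the study, which gives each gene the name of the closest *Arabidopsis* protein. The study sequenced RNA of floral buds of dioecious trees to follow male and female floral differentiation over 4 stages. The male groups were undifferentiated primordia (M1), primordia initiation (M2), primordia differentiation (M3), and development and maturation (M4), and the female groups F1 to F4 were the same stages of female trees. The sample labels name no treatment or genotype. Male and female buds came from different trees, so sex cannot be told apart from other differences between those trees. Each group has 3 libraries except M2, which has 2 here, and 23 libraries were analysed of 24. By the methods of the study each replicate mixed buds of several trees, so the spread between replicates is that between pools and not between single trees. The levels are given in FPKM, a count of fragments scaled by gene length and by the mapped fragments of each library, so levels of different genes can be set side by side per length. Fewer cells of a type and less RNA per cell cannot be told apart in such bulk samples.

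*PISTILLATA* (*PI*) and *APETALA3* (*AP3*) encode MADS-box transcription factors. In *Arabidopsis* their proteins bind DNA as a heterodimer, and together they specify petals in the second whorl and stamens in the third whorl of the flower. Loss of either gene in *Arabidopsis* gives sepals in place of petals and carpels in place of stamens. In the ABCDE model of floral organ identity the B class acts with the class A gene *AP1* and the class E genes *SEP1* to *SEP3* in petals, and with the class C gene *AG* and the class E genes in stamens. The class D genes *STK* and *SHP1* act in ovules, outside the B class organs.

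The sequences below are the qRT-PCR primers that the study designed for the PI gene and for 1 of the AP3 genes, shown because they tie these IDs to transcript sequence. They are 23 to 25 bases long and printed 5′ to 3′, in lower case throughout.
Zardc17043(*ZaPI*) forward: aagaagtcaagcaagaagttgtggg
Zardc17043(*ZaPI*) reverse: ctgtttgttgctaatgccagtgag
Zardc41655(*ZaAP3*) forward: acataagcccttcaacaacgactaa
Zardc41655(*ZaAP3*) reverse: tggttacatcctccaaatcttcc
Whether the AP3 pair also primes the other AP3 copies was not tested, and the qRT-PCR values were not analysed here.

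The low FPKM values of each gene step in equal units, and the step was taken as the worth of 1 read. The values were first scaled by the relative depth of the libraries, which ran from 0.853 to 1.09. Of the 253 values of the 11 PI and AP3 genes of the MADS-box table, 138 were above 0. These lay within 2.0e-06 of a whole number of reads. The step of each gene was set from its own lowest value above 0, so that value is whole by construction. In these libraries 1 read was worth 0.154 to 0.198 FPKM for Zardc17043(*ZaPI*) and 0.0983 to 0.126 FPKM for the AP3 genes. The 3 AP3 genes had the same step, hence the same counted length, and the counted length of Zardc17043(*ZaPI*) was 0.637 times as long. How the counting treated reads that map to several gene copies was not given in the sources used here. The division of reads among the AP3 copies, and their total, are therefore uncertain. Intervals from read counts below cover counting error only.

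The flower label was checked against 7 marker genes (*AG*, *SEP1*, 2 *SEP2*, *SEP3* and 2 *AP1*). Their summed level was 6.13 to 8.48 FPKM in M1 and F1, where 5 and 6 of the 7 were above 0. Most of that sum was 1 *SEP2* gene, Zardc10299, at 5.59 FPKM on average in M1 and 4.88 in F1. *SEP1* and Zardc39101(*ZaAP1*) counted as above 0 in M1 at no more than 0.0955 and 0.101 FPKM. The sum was 68.3 to 73.9 FPKM in M2, 23.2 to 30.5 in F2, 88.0 to 98.1 in M3 and 47.8 to 60.5 in F3. In the mature flowers it was 275 to 287 FPKM in M4 and 293 to 305 in F4. The carpel and ovule markers (2 *STK* and 2 *SHP1*) summed to at most 2.62 FPKM in M1 to M3 and F1 to F3, to 13.3 to 13.7 in M4 and to 36.0 to 42.2 in F4, and both *STK* genes stayed at or under 0.278 FPKM in every male library.

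Zardc17043(*ZaPI*) was the most abundant of the 4 genes in every group except F2, by mean FPKM, and male libraries lay above female libraries at each stage. It was at 4.22, 4.01 and 5.09 FPKM in M1 against 0.706, 0.331 and 0.326 FPKM in F1. It was at 6.49 and 7.24 FPKM in the M2 libraries, while F2 held 1 read in all, with 0, 0.178 and 0 FPKM. The male values did not overlap with the female ones at either early stage. In M3 it was at 20.9, 33.2 and 28.4 FPKM, and in F3 at 1.78, 1.97 and 3.05 FPKM. In M4 it reached 113, 121 and 132 FPKM, above 97.8 to 98.2% of all genes in the library, whereas F4 had 4.12, 4.33 and 5.40 FPKM. All 3 M4 libraries thus stood at least 20.9 times above the highest F4 library.

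By its means the order of the groups was M4 (122 ± 9.33 FPKM, SD, n = 3), M3 (27.5 ± 6.18), M2 (6.86 ± 0.531, n = 2), F4 (4.62 ± 0.689), M1 (4.44 ± 0.569), F3 (2.27 ± 0.682), F1 (0.454 ± 0.218) and F2 (0.0595 ± 0.103). Only F4 and M1 overlapped among neighbours in this order, so the PI level of mature female flowers did not differ beyond its spread from that of undifferentiated male primordia. The other 6 pairs of neighbours had no overlapping libraries.

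**Figure D1:**
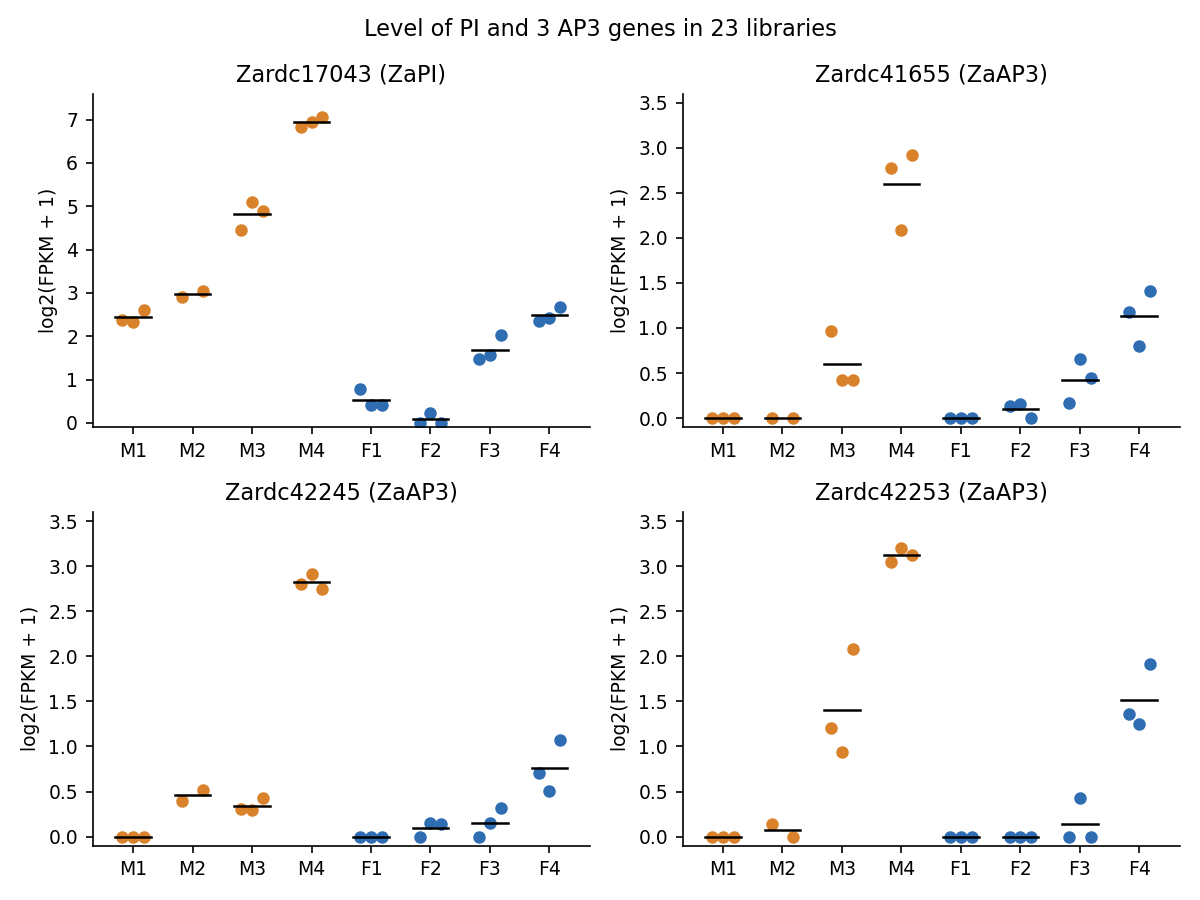
Level of each gene as log2(FPKM + 1) on the vertical axis in every library (points, orange male and blue female) of the 8 groups, with the group mean as a bar; the PI panel has a taller axis. Zardc17043(*ZaPI*) runs from 4.01 to 5.09 FPKM in M1 up to 113 to 132 FPKM in M4, while the 3 AP3 genes are at 0 in M1 and F1 and highest in M4.

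To ask when the sexes part, males were compared with females at each stage with limma on log2(FPKM + 1). A gene was called where the absolute log2 fold change was at least 1 and the adjusted p at most 0.05, and the fold change of a weak gene is understated on this scale. Zardc17043(*ZaPI*) was higher in males at all 4 stages. Its log2 fold change was 1.91 ± 0.165 (SE) in M1*vs.*F1, with an adjusted p of 4.1e-08 by limma. It was 2.89 ± 0.185 in M2*vs.*F2, 3.12 ± 0.165 in M3*vs.*F3 and 4.46 ± 0.165 in M4*vs.*F4, with adjusted p from limma of 8.0e-10, 3.0e-11 and 1.1e-13. Of the 38734 genes tested it ranked 9th from the highest in M4*vs.*F4. In ratios of mean FPKM the male level was 9.78 times the female level at stage 1 (counting interval 4.80 to 23.8), 12.1 times at stage 3 (8.67 to 17.6) and 26.4 times at stage 4 (21.3 to 33.5). At stage 2 the single F2 read leaves the ratio between 21.7 and 4968. The summed flower markers were also higher in M2 and M3 than in F2 and F3, and their part in the PI differences at those stages was not tested. At stage 4 that sum was no higher in males. The RNA integrity numbers that the study reported, a measure of RNA quality, overlapped between the sexes at the first stages. They were lower in every F3 sample than in every M3 sample, and lower in every F4 sample than in every M4 sample. The part of RNA quality in the differences between the sexes was not tested.

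Zardc17043(*ZaPI*) was the only one of the 4 genes called in M1*vs.*F1, where 2.58% of all tested genes were called higher, and in M2*vs.*F2, where 3.72% were. The AP3 genes had no read in M1 or F1 and could not be called there. With a pseudocount of 0.1 Zardc42245(*ZaAP3*) was also called in M2*vs.*F2, at 1.52 (limma, adjusted p = 0.032), on 7 reads in M2 and 2 in F2. In M3*vs.*F3, Zardc17043(*ZaPI*) and Zardc42253(*ZaAP3*) were called (2 of 4, against 3.66% of all tested genes). In M4*vs.*F4 all 4 were called higher in males, against 4.64%. Tested against the fold threshold itself by limma's treat, Zardc17043(*ZaPI*) and Zardc42245(*ZaAP3*) were called there and the other 2 were not. The MADS-box table that names these genes was drawn by the study from genes called between the sexes in these same samples, so the counts are not independent evidence of the direction.

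Zardc42253(*ZaAP3*) was the highest of the 3 AP3 genes in M3 and M4. It had no read in M1, F1 or F2, where a floor of 3 reads over the group stands for 0.108, 0.107 and 0.105 FPKM. In M2 it was at 0.106 and 0 FPKM. In M3 it was at 1.31, 0.910 and 3.23 FPKM and in F3 at 0, 0.342 and 0 FPKM, so that each M3 library lay above each F3 library on 47 and 3 reads in all. In M4 it was at 7.23, 8.19 and 7.71 FPKM and in F4 at 1.57, 1.38 and 2.77 FPKM. The M4 mean was 4.04 times that of F4 (counting interval 3.003 to 5.60). The log2 fold change was 1.27 ± 0.218 in M3*vs.*F3 (limma, adjusted p = 0.00012) and 1.61 ± 0.218 in M4*vs.*F4 (limma, adjusted p = 6.1e-06). Without M3 replicate 3, the library at 3.23 FPKM, the M3*vs.*F3 value was 0.93 and no longer passed the fold threshold.

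Zardc42245(*ZaAP3*) had no read in M1 or F1. Its first reads in males came in M2, with 3 and 4 reads (0.318 and 0.429 FPKM), and M3 held no more, with 2, 2 and 3 reads (0.238, 0.227 and 0.346 FPKM). In F2 it was at 0, 0.114 and 0.106 FPKM and in F3 at 0, 0.114 and 0.242 FPKM, at most 2 reads a library. It then stood at 5.95, 6.51 and 5.73 FPKM in M4 against 0.629, 0.425 and 1.11 FPKM in F4. The lowest M4 library was thus 5.17 times the highest F4 library. The M4 mean was 8.41 times that of F4 (counting interval 5.32 to 14.2), and the log2 fold change of 2.06 ± 0.133 was the largest of the 3 AP3 genes (limma, adjusted p = 2.8e-10).

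Zardc41655(*ZaAP3*) had no read in M1, M2 or F1, and F2 had 0.0983, 0.114 and 0 FPKM. In M3 it was at 0.953, 0.341 and 0.346 FPKM and in F3 at 0.126, 0.570 and 0.364 FPKM, and these libraries overlapped. In M4 it was at 5.85, 3.25 and 6.57 FPKM and in F4 at 1.26, 0.743 and 1.66 FPKM. M4 replicate 2 was the lowest for this gene and the highest for both other AP3 genes, and in F4 the library numbered 2 was the lowest for each AP3 gene. The M4 mean was 4.27 times that of F4 (counting interval 2.94 to 6.43), with a log2 fold change of 1.46 ± 0.201 (limma, adjusted p = 7.2e-06). The M3*vs.*F3 value was 0.18 (95% interval -0.24 to 0.60), which does not show equal levels.

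The filter on low values asked for 1 FPKM in at least 3 libraries. Zardc41655(*ZaAP3*) was at 1 FPKM or more in 3 M4 and 2 F4 libraries only, and Zardc42245(*ZaAP3*) in 3 M4 and 1 F4 library only, so these 2 genes passed only through M4. Genes that pass in this way are bound to be high in M4, and their number there is no support for a difference. Zardc42253(*ZaAP3*) was at that level in 2 M3, 3 M4 and 3 F4 libraries and would have passed without M4. With both M1 and F1 listed at 0 for the 3 genes, no fold is given for that stage.

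Along the male stages Zardc17043(*ZaPI*) was seen before the 3 AP3 genes. All 3 M1 libraries held 23 to 31 reads of it and none of the 3 AP3 genes. In M2*vs.*M1 none of the 4 genes was called by limma, with 2.04% of all tested genes called higher. At an adjusted p of at most 0.05 without the fold threshold Zardc17043(*ZaPI*) and Zardc42245(*ZaAP3*) did pass there, with log2 fold changes of 0.53 and 0.46 and adjusted p from limma of 0.034 and 0.025. The first was 0.225 with a pseudocount of 0.1 and the second 0.0723 with quantile normalization. In M3*vs.*M2, Zardc17043(*ZaPI*) rose by 1.84 ± 0.185 on the log2 scale and Zardc42253(*ZaAP3*) by 1.33 ± 0.244 (2 of 4, against 1.25% of all tested genes). In M3*vs.*M1 the same 2 genes rose by 2.37 and 1.41, against 2.77% of all tested genes. The call of Zardc42253(*ZaAP3*) in M3*vs.*M2 depended on M3 replicate 3. Without that library the rise was 0.998, just under the fold threshold (limma, adjusted p = 0.0014). A fit of these groups alone gave the M3*vs.*M2 rise an adjusted p of 0.065 by limma. With a pseudocount of 0.1 or 0.5 Zardc41655(*ZaAP3*) was called as well in both contrasts.

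In M4*vs.*M3 all 4 genes rose, against 4.5% of all tested genes called higher. The log2 fold changes were 2.13 ± 0.165 for Zardc17043(*ZaPI*), 1.99 ± 0.201 for Zardc41655(*ZaAP3*), 2.48 ± 0.133 for Zardc42245(*ZaAP3*) and 1.71 ± 0.218 for Zardc42253(*ZaAP3*), with adjusted p from limma between 7.5e-12 and 2.3e-06. Under treat Zardc42253(*ZaAP3*) had an adjusted p of 0.056 and was not called. In ratios of mean FPKM these were 4.43, 9.56, 22.4 and 4.25 times. From M1 to M4 Zardc17043(*ZaPI*) was 27.5 times higher. Against a floor of 3 reads over the M1 group the AP3 genes were at least 48.5-fold higher (Zardc41655), at least 56.3-fold higher (Zardc42245) and at least 71.7-fold higher (Zardc42253) in M4.

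**Figure D2:**
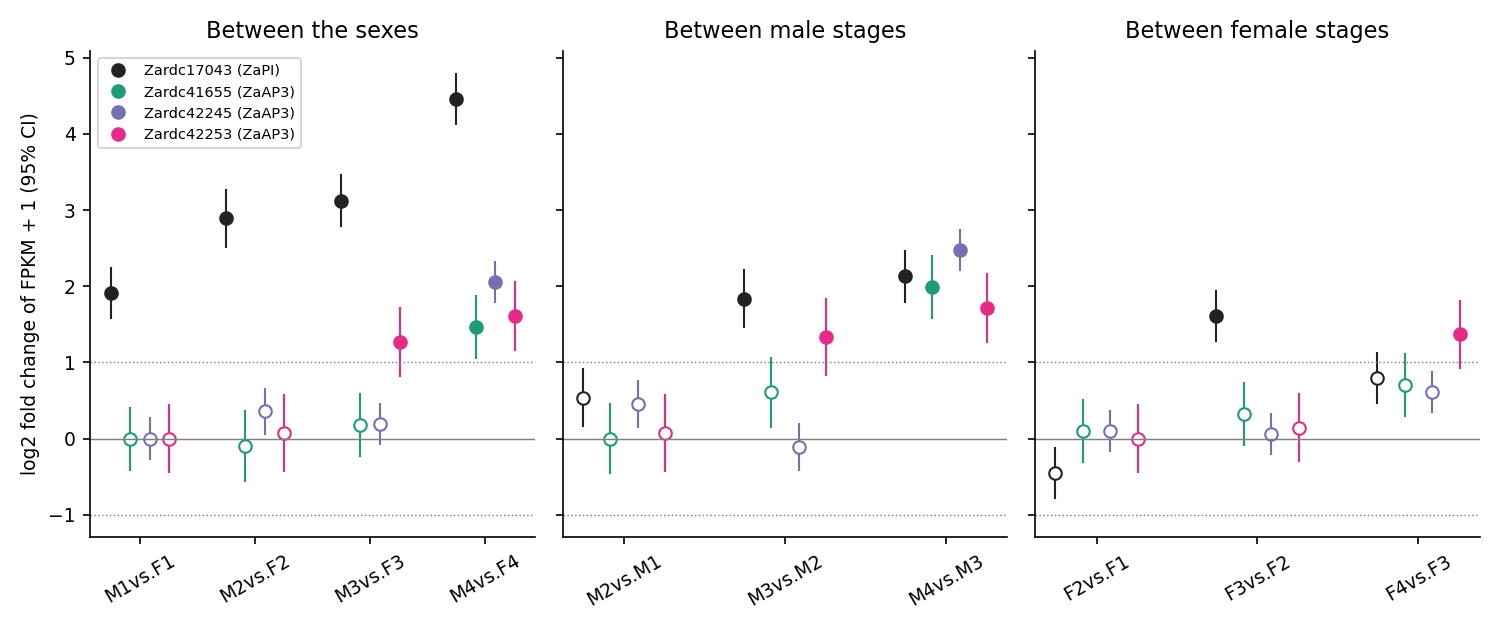
Log2 fold change of FPKM + 1 (vertical axis, with the 95% interval from limma) of the 4 genes between the sexes at each stage and between consecutive stages of either sex. Filled points were called and open points were not, and dotted lines mark 1 and -1. Zardc17043(*ZaPI*) is called at all 4 stages between the sexes, from 1.91 to 4.46, and all 4 genes are called in M4*vs.*M3.

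The same comparisons were made between the female stages. In F2*vs.*F1 none of the 4 genes was called, with 1.06% of all tested genes called higher and 3.15% lower. The PI reads numbered 4, 2 and 2 in F1 and 0, 1 and 0 in F2, and the log2 fold change was -0.45 ± 0.165. That value passed the adjusted p by limma (0.045) but not the fold threshold, and with a pseudocount of 0.1 it was -1.91 and was called. Without the filter and with quantile normalization its adjusted p was 0.061. In F3*vs.*F2 and F3*vs.*F1 only Zardc17043(*ZaPI*) rose, by 1.61 ± 0.165 and 1.16 ± 0.165 on the log2 scale (1 of 4, against 4.18% and 3.04% of all tested genes). Without F3 replicate 3 the F3*vs.*F1 value was 0.993, under the threshold.

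In F4*vs.*F3 only Zardc42253(*ZaAP3*) was called, with a rise of 1.37 ± 0.218 (1 of 4, against 4.25% of all tested genes). The other 3 genes had log2 values of 0.80 (Zardc17043), 0.71 (Zardc41655) and 0.61 (Zardc42245), below the fold threshold, with adjusted p from limma of 0.00058, 0.0076 and 0.00098. In ratios of mean FPKM the F4 level was 2.04 times that of F3 for Zardc17043(*ZaPI*) (counting interval 1.36 to 3.10), 3.46 times for Zardc41655(*ZaAP3*), 6.07 times for Zardc42245(*ZaAP3*) and 16.7 times for Zardc42253(*ZaAP3*), the last on 53 and 3 reads. With a pseudocount of 0.1 all 4 genes were called in F4*vs.*F3. The AP3 genes were at 0 in all F1 libraries.

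The difference between the male and the female change was tested as a sex by stage interaction, the male change minus the female change. From stage 1 to stage 4 it was above the thresholds for all 4 genes, at 2.55 ± 0.234 (Zardc17043), 1.46 ± 0.284 (Zardc41655), 2.06 ± 0.188 (Zardc42245) and 1.61 ± 0.308 (Zardc42253), with 4.02% of all tested genes called in that direction. Since both sexes were at 0 at stage 1, the values of the AP3 genes equal those of M4*vs.*F4. From stage 1 to stage 3 it passed for Zardc17043(*ZaPI*) (1.21) and Zardc42253(*ZaAP3*) (1.27), 2 of 4 against 1.61% of all tested genes. The value of Zardc42253(*ZaAP3*) was 0.93 without M3 replicate 3, and that of Zardc17043(*ZaPI*) was 0.95 with a pseudocount of 0.5, both under the fold threshold.

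From stage 3 to stage 4 the interaction passed for Zardc17043(*ZaPI*) (1.33), Zardc41655(*ZaAP3*) (1.28) and Zardc42245(*ZaAP3*) (1.87), 3 of 4 against 2.56%, while Zardc42253(*ZaAP3*) had 0.35 (95% interval -0.30 to 0.99). This scale matters for the comparison of changes, since a ratio from a low level is understated by the pseudocount of 1. With a pseudocount of 0.1 the PI values from stage 1 to 3 and from stage 3 to 4 were 0.46 and 1.14, and that of Zardc41655(*ZaAP3*) from stage 3 to 4 was 1.49, none of them past the adjusted p (0.557, 0.0938 and 0.131 by limma). The value of Zardc42253(*ZaAP3*) from stage 3 to 4 turned to -1.33 there (limma, adjusted p = 0.23).

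As PI and AP3 proteins act as a pair in *Arabidopsis*, the PI level was set beside the summed level of the 3 AP3 genes in each library. In M4 Zardc17043(*ZaPI*) was at 5.95, 6.74 and 6.58 times the AP3 sum, and in F4 at 1.19, 1.70 and 0.974 times. The groups did not overlap, and the mean difference was 2.36 on the log2 scale, with the smallest two-sided p an exact permutation test of 3 against 3 libraries can give (p = 0.1, adjusted to 0.15 over the 6 ratio and share tests made). In M3 the ratio was 8.38, 22.5 and 7.25 and in F3 14.1, 1.92 and 5.03, on as few as 1 AP3 read in F3 replicate 1. These overlapped (exact permutation test, p = 0.4, adjusted 0.4). With all 3 PI and 8 AP3 IDs of the MADS-box table, an alternative chosen after seeing the data, the ratio was 3.39 to 3.82 in M4 and 0.466 to 0.543 in F4 (exact permutation test, p = 0.1, adjusted 0.15). By that sum the counted PI level was above the AP3 level in M4 and below it in F4. Whether reads shared between copies are missing from the AP3 sum was not tested, so which is in excess is not known.

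The make-up of the AP3 sum also varied. Zardc42245(*ZaAP3*) gave 31.3, 36.3 and 28.6% of it in the M4 libraries, 9.52, 15.4 and 8.82% in M3 and 18.2, 16.7 and 20% in F4. Its share in M4 lay above that in M3 by 20.8 percentage points and above that in F4 by 13.8 points, with no overlap either time (exact permutation test, p = 0.1 each, the smallest possible, adjusted 0.15). The M3 shares rest on 2, 2 and 3 reads of this gene. It was the only gene whose share was tested, and it had the largest log2 fold changes of the 3 AP3 genes in M4*vs.*M3 (2.48) and M4*vs.*F4 (2.06). The share tests are therefore no support beyond those fold changes. Zardc42253(*ZaAP3*) gave the largest share in each M3, M4 and F4 library, from 38.0% to 82.4%. In M2 the 4 AP3 reads of each library were 3 and 4 of Zardc42245(*ZaAP3*). How alike the copies are in sequence was not tested, and these shares are those of the authors' counting.

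**Figure D3:**
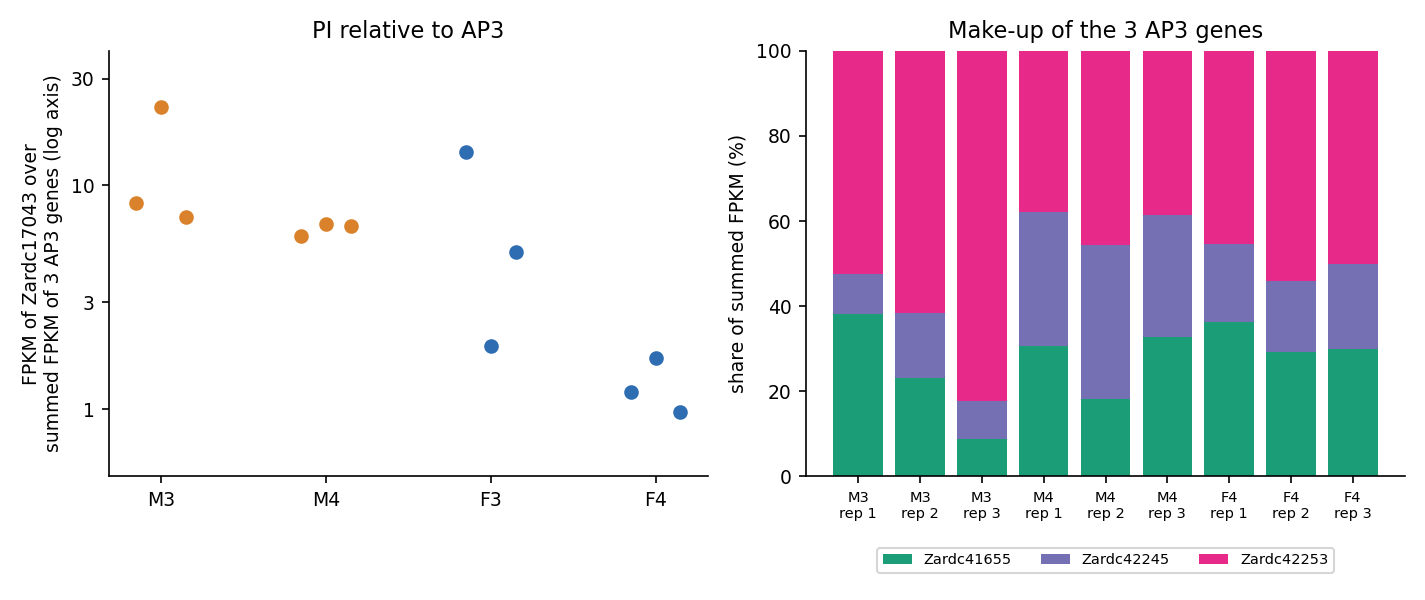
Left, FPKM of Zardc17043(*ZaPI*) over the summed FPKM of the 3 AP3 genes (log axis) in each library of M3, M4, F3 and F4. Right, share of each AP3 gene in that sum (%) in each library of M3, M4 and F4. The 3 M4 libraries lie at 5.95 to 6.74 and the 3 F4 libraries at 0.974 to 1.70, and Zardc42245 has its largest shares in M4.

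Over the 23 libraries the levels of the 3 AP3 genes followed each other, with Pearson correlations of log2(FPKM + 1) of 0.905 to 0.938. The correlations of Zardc17043(*ZaPI*) with them were 0.780 (Zardc41655), 0.811 (Zardc42245) and 0.856 (Zardc42253). Within the 11 male libraries these were 0.921, 0.891 and 0.970, and within the 12 female libraries 0.878, 0.797 and 0.801. The libraries share their group structure, so these values describe the common course of the stages and are no test.

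The MADS-box table names 7 further genes as PI or AP3, 2 PI genes under IDs that the authors added to the published gene set and 5 AP3 genes. All 8 AP3 IDs lie in 2 stretches of ID numbers, Zardc41637 to Zardc41656 and Zardc42245 to Zardc42253, and whether ID numbers follow the order on the genome was not tested. Zardc41637 and Zardc41639 had the same counted length as the 3 genes above, and Zardc41638 one 1.004 times as long. Of the 7 genes, none was called between the sexes at the first 3 stages, nor in M2*vs.*M1, F2*vs.*F1, F3*vs.*F1 or F3*vs.*F2. In M4*vs.*F4 4 of 7 were called higher in males, against 4.64% of all tested genes, and their median log2 fold change was 1.01 against 0.0046 over all tested genes. In M4*vs.*M3 5 of 7 rose, against 4.5%, and in F4*vs.*F3 2 of 7, against 4.25%. None of the 7 was called lower in M4*vs.*F4. Only Zardc41656(*ZaAP3*) and Zardc42251(*ZaAP3*) reached 1 FPKM in at least 3 libraries without M4, so the others passed the filter only through M4. All 7 also come from the list that the study drew from genes called between the sexes. The counts in M4*vs.*F4 and M4*vs.*M3, the median and the M3*vs.*F3 values are therefore no support for a difference.

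Unlike Zardc17043(*ZaPI*), the 2 further PI genes were scarce before M3. One had 1, 1 and 22 reads over all M1, M2 and M3 libraries and the other 1, 0 and 47. They were both at 5 FPKM or more in every M4 library and at or under 0.222 FPKM in every F4 library. Their log2 fold changes in M4*vs.*F4 were 2.78 ± 0.111 and 2.65 ± 0.129. Neither was called in F4*vs.*F3, with values of 0.15 and 0.10. The first had 0 reads over all F3 libraries and 6 over all F4 libraries, and the second had 2 and 6. These reads are too few to tell whether the 2 genes rose from F3 to F4. Of the AP3 genes, Zardc41656(*ZaAP3*) had the highest level of all 8 in M4, at 8.97 ± 2.91 FPKM against 2.04 ± 1.51 FPKM in F4, with a log2 fold change of 1.79 ± 0.317 (limma, adjusted p = 0.00013). Zardc42251(*ZaAP3*) was at 4.57 ± 2.08 FPKM in M4 and 1.65 ± 0.478 FPKM in F4 (1.01 ± 0.227). Zardc41637, Zardc41638 and Zardc41639 were the weakest, at 1.33 to 2.13 FPKM on average in M4. Their M4*vs.*F4 values of 0.92, 0.95 and 0.30 were not called, and Zardc41639(*ZaAP3*) overlapped between the sexes. For Zardc41637 and Zardc41638 every M4 library lay above every F4 library, with adjusted p from limma of 6.1e-05 and 0.00027. These 2 genes missed only the fold threshold, at means of 1.61 and 2.13 FPKM in M4 against 0.400 and 0.688 FPKM in F4.

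17 other genes of the MADS-box table are given by class for M4*vs.*F4, with 4.64% of all tested genes called higher and 3.47% lower. Of the 3 A class genes 1 was called higher in males and 1 lower. The C class gene Zardc02402(*ZaAG*), which in *Arabidopsis* is needed for stamens and carpels, was not called, with 53.8 FPKM in M4 and 58.0 FPKM in F4 on average. It was higher in M3 (13.98 FPKM) than in F3 (3.86 FPKM), with a log2 fold change of 1.62 (limma, adjusted p = 7.3e-06). All 4 D class genes, the *STK* and *SHP1* genes of ovule and carpel identity, were called lower in males, with log2 fold changes of -2.44 to -1.04. The libraries of Zardc17954(*ZaSHP1*) overlapped between the sexes, with up to 1.71 FPKM in M4 and 1.60 FPKM or more in F4. Zardc10218(*ZaSHP1*) was at 12.2 FPKM in M4 and 29.6 FPKM in F4 on average. Of the 4 E class genes none was higher and 1 was lower, Zardc28170(*ZaSEP3*) at -1.95. Of the 5 transition genes (*SOC1*, *SVP* and *FYF*) 2 were higher and none lower. In M4 Zardc17043(*ZaPI*) stood at 122 FPKM beside 53.8 FPKM of Zardc02402(*ZaAG*), and in F4 at 4.62 FPKM beside 58.0 FPKM.

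**Figure D4:**
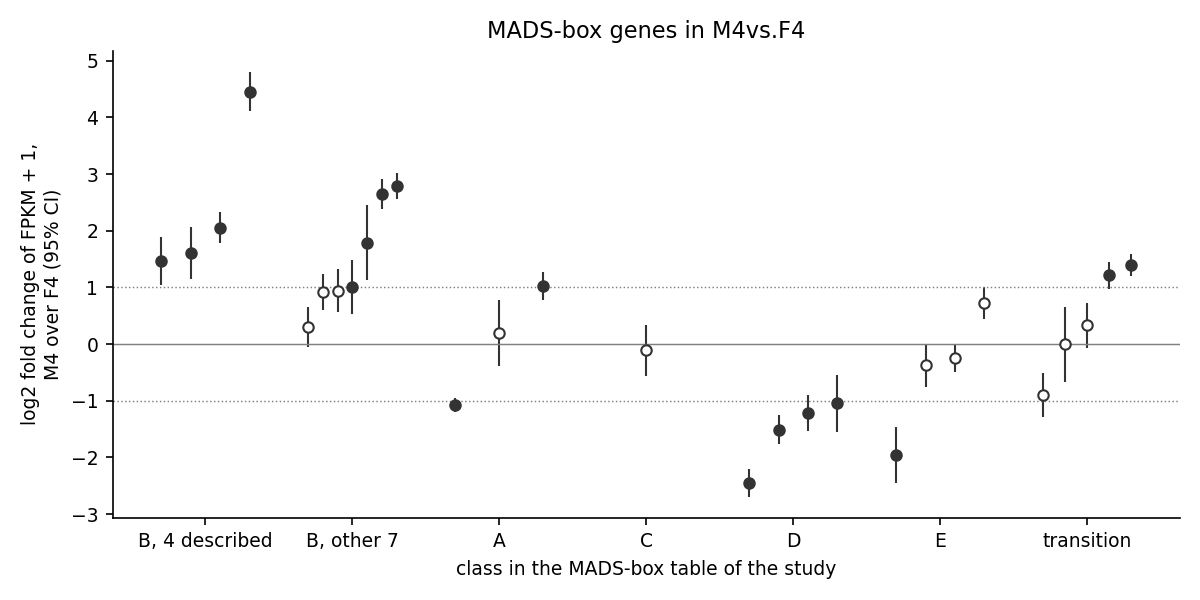
Log2 fold change of FPKM + 1 between M4 and F4 (vertical axis, 95% interval from limma) of 28 genes of the MADS-box table by class. Filled points were called and open points were not. The 4 B class genes described here lie at 1.46 to 4.46, the other 7 at 0.30 to 2.78, and the 4 D class genes at -2.44 to -1.04.

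For each gene the 3 tested genes most like it in log2(FPKM + 1) over the 23 libraries were found by Pearson correlation. For Zardc17043(*ZaPI*) these were Zardc13592 (0.957), Zardc31407 (0.952) and Zardc07435 (0.950), which carry no name in the sources used here. Zardc31407 had mean levels of 2.18, 3.005, 10.9 and 54.5 FPKM in M1 to M4 and 1.78, 0.0315, 1.28 and 5.78 FPKM in F1 to F4. For Zardc42253(*ZaAP3*) the closest were Zardc41637(*ZaAP3*) (0.962) and Zardc41638(*ZaAP3*) (0.953), followed by Zardc29371 (0.952). For Zardc42245(*ZaAP3*) they were Zardc42308 (0.980), Zardc27260 (0.978) and Zardc02807 (0.9754). For Zardc41655(*ZaAP3*) they were Zardc55281 (0.960), a gene under an ID that the authors added (0.959) and Zardc43570 (0.957). Among the 38733 other tested genes, 165 followed Zardc17043(*ZaPI*) more closely than Zardc42253(*ZaAP3*) did, 387 more closely than Zardc42245(*ZaAP3*) and 651 more closely than Zardc41655(*ZaAP3*).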

How the data were processed

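RNA of floral buds was sequenced on the Illumina HiSeq platform. By the methods of the study the authors mapped clean reads on the published *Z. armatum* genome, summed them per gene with HTSeq and deposited them in FPKM. The submitters' processing notes name Bowtie 0.12.2 and the build mm8, a mouse build, so which aligner made these values is unsure. The third M2 file was left out, since it lists 183 genes and 182 of them equal M3 replicate 1.

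The test took genes that reached 1 FPKM in 3 or more of 23 libraries (38734 of the 50500 above 0). With limma 3.58.1 in R 4.3.3 (the data.table package, version 1.17.8), log2(FPKM + 1) was fitted with all 8 groups at once and a trended prior, with 15 residual degrees of freedom. The Benjamini-Hochberg adjustment ran over all tested genes within each contrast, and a call needed an adjusted p of 0.05 or less and a log2 change of 1 or more in either direction. Fits were tested on simulated data. Because the values are FPKM, no count test was run. Reads were derived from FPKM steps with the relative depth of each library. Ratios were compared by exact two-sided permutation tests. Counting intervals are at 95%, and a count of 0 was set at a floor of 3 reads over the group. Python 3.11.15, numpy 2.4.6, pandas 2.3.3, scipy 1.17.1 and matplotlib 3.10.9 were used.

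The genes and lists were chosen with earlier results of these data known. The genes named are the 4 genes, the other 7 PI and AP3 genes, 17 other genes of the MADS-box table by class (1 further group of that table is not reported here), and the 3 genes most correlated with each of the 4. Alternatives were pseudocounts of 0.1 and 0.5, no filter, limma's treat, quantile normalization, the replicate number as a block, a fit restricted to the compared groups, and each library left out. Positions in the genome were not used here. P-values measure the spread between pools of buds.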

Additional observations from a re-analysis of the deposited data

Results flagged for a closer look

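For Zardc17043(*ZaPI*) the male change was larger than the female change by the interaction test over all 3 spans of stages on the scale of log2(FPKM + 1). The difference was 1.21 on the log2 scale from stage 1 to 3, 1.33 from stage 3 to 4 and 2.55 from stage 1 to 4. With a pseudocount of 0.1 the first 2 were 0.46 and 1.14 and were not called, and the first was not called at 0.5 either, at 0.95. In ratios of mean FPKM Zardc17043(*ZaPI*) rose 6.20 times from M1 to M3 and 4.99 times from F1 to F3. For Zardc42253(*ZaAP3*) the same test gave 1.27 from stage 1 to 3 and 1.61 from stage 1 to 4, the first of which was 0.93 and not called without M3 replicate 3. For Zardc41655(*ZaAP3*) it gave 1.28 from stage 3 to 4, not called with a pseudocount of 0.1, and 1.46 from stage 1 to 4. For Zardc42245(*ZaAP3*) it gave 1.87 from stage 3 to 4 and 2.06 from stage 1 to 4. Each was taken up because the change in one sex differed from that in the other past both thresholds. No group has 4 or more libraries, so single libraries were not tested for lying apart from their group.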

How the results depend on the processing

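Of the 60 log2 fold changes (4 genes in 15 contrasts), all 60 kept their direction and their call, made on fold and adjusted p together, without the filter, with quantile normalization and with the replicate number as a block, and 59 with only the groups compared. Among values under the fold threshold, the adjusted p rose above 0.05 under at least 1 alternative besides treat and left-out libraries for Zardc17043 in F2*vs.*F1 and M2*vs.*M1 and for Zardc42245 in M2*vs.*M1 and M3*vs.*M1. The replicate numbers did not pair the libraries: the correlation of deviations from the group means over 33 same-numbered pairs ran from -0.0782 to 0.0905. Under the replicate block 3142 genes were called in M4*vs.*F4, as without it, and the numbers of the 4 genes called were 1, 1, 2 and 4 between the sexes, as in the report.

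With a pseudocount of 0.1 the genes called numbered 2 in M2*vs.*F2, 1 in M2*vs.*M1, 4 in M3*vs.*M1, 3 in M3*vs.*M2, 1 in F2*vs.*F1, 2 in F3*vs.*F1, 2 in F3*vs.*F2, 4 in F4*vs.*F3, and 1 each in the interactions from stage 1 to 3 and 3 to 4. With a pseudocount of 0.5 they were 3 in M3*vs.*M1, 3 in M3*vs.*M2, 2 in F4*vs.*F3 and 1 in the interaction from stage 1 to 3. The interaction of Zardc42253 from stage 3 to 4 turned from 0.35 to -1.33 and -0.021 with these pseudocounts, and was not called either way. With only the groups compared, 1 gene was called in M3*vs.*M2. Treat, which tests against the fold threshold itself, called 1 gene in M3*vs.*F3, 2 in M4*vs.*F4, 1 in M3*vs.*M1, 1 in M3*vs.*M2, 3 in M4*vs.*M3, 0 in F3*vs.*F1, 0 in F4*vs.*F3, and 0, 1 and 2 in the interactions from stage 1 to 3, 3 to 4 and 1 to 4. The 2 called by treat in M4*vs.*F4 were Zardc17043 and Zardc42245.

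Leaving out single libraries moved the count between 0 and 1 in F3*vs.*F1 (without F3 replicate 3), and between 1 and 2 in M3*vs.*F3, in M3*vs.*M2 and in the interaction from stage 1 to 3 (each without M3 replicate 3). The F3*vs.*F2 value of Zardc42245, not called, ran from -0.022 to 0.13. Where 1 M2 library was left out, the other was assumed to vary like the other groups. Of the 3 genes most like each of the 4, Spearman's rho kept 0, 0, 0 and 2 and a pseudocount of 0.1 kept 1, 1, 1 and 2, for Zardc17043, Zardc41655, Zardc42245 and Zardc42253 in turn. Depth limits the AP3 genes most: before stage 4 they rest on at most 28 reads a library. RNA quality, lower in F3 and F4 than in M3 and M4 by the study's values, was not part of any fit.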

Other observations

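Next to Zardc42253(*ZaAP3*) in number, Zardc42254 and Zardc42255 carry no name in the sources used here and were singled out after their values were seen. They had the same counted length as the 3 AP3 genes and were at 0 in all M1, M2, F1 and F2 libraries. Zardc42254 had mean levels of 0.425 FPKM in M3, 1.16 in M4, 0 in F3 and 0.390 in F4. Zardc42255 had 0.306 FPKM in M3, 1.504 in M4, 0.166 in F3 and 1.21 in F4. What these genes encode was not tested.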
